A study of Mus musculus with 8 samples.

Results

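All but 3 of the 84 genes described here encode ribosome biogenesis factors, the proteins that transcribe ribosomal RNA, process it and assemble ribosomal subunits around it. All 84, called factors below, are those of the 12193 gene loci in each library whose symbol matches a fixed pattern of names. That pattern was drawn up with earlier results of these data known. RNA was sequenced from AtT-20, a mouse corticotrope tumour line that makes pro-opiomelanocortin. The 4 groups, with 2 libraries each, were an EGFR line given water, the same line given EGF for 3 h, the same line given EGF for 18 h, and a control line carrying Neo given water. The titles of all 4 water libraries carry the label 3 h. The libraries are called EGFR water 1 and 2, EGF 3 h 1 and 2, EGF 18 h 1 and 2, and Neo 1 and 2, after the replicate numbers in their titles. The study's title concerns EGF, STAT3 and transcription of the POMC gene. EGF was not given to the Neo line, and for want of water libraries at 18 h, the length of culture and the action of EGF cannot be told apart at that time. The labels give neither the species of the introduced EGFR, nor the promoter that drives it, nor whether either line is a clone, nor whether the 2 libraries of a group came from separate cultures. All p-values therefore measure only the spread between these libraries.

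RNA polymerase I transcribes ribosomal DNA in the nucleolus into a long precursor. Small nucleolar ribonucleoproteins modify that precursor, the small subunit processome folds and cleaves its leading part, and helicases, GTPases and scaffold proteins mature the large subunit from the rest. Growth factor signalling and transcription factors of the MYC family are known to raise the output of this pathway in many proliferating cells.

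Of the 84 genes, 6 belong to RNA polymerase I and its initiation, 9 to small nucleolar ribonucleoproteins, 36 to the small subunit processome and small subunit maturation, 27 to large subunit assembly, and 3 are abundant nucleolar proteins of several functions. The last 3, Nol3, Nol4 and Nol4l, match the symbol rule but are not known as biogenesis factors: Nol3 is an apoptosis repressor. All 84 are protein-coding, and all passed the filter of at least 1 FPKM (fragments per kilobase of exon, scaled to the mapped fragments of the library) in at least 2 libraries. Values are FPKM as deposited, a level relative to gene length and library total, so these bulk libraries do not tell fewer expressing cells from less RNA per cell. Each fold change is a difference of log2(FPKM + 1) means, which understates the change of low genes. A gene is said to have risen or fallen where limma's Benjamini-Hochberg adjusted p over 10874 tested genes was under 0.05.

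FPKM summed to between 683834 and 808072 per library with medians of 14.3 to 14.7, and sequencing depth is not given. Egfr was 25.9 and 27.5 FPKM in EGFR water libraries and 0.227 and 0.0663 FPKM in Neo libraries. Small RNA loci took 29.1 to 32.8% of the FPKM sum in the 6 EGFR libraries, against 39.0% in Neo 1 and 33.2% in Neo 2, and the part of this share in the comparison of the lines was not tested. The corticotrope markers Pomc, Tbx19, Neurod1, Pitx1 and Pcsk1 had values above 10 FPKM in all 8 libraries, and Crhr1, Avpr1b and markers of other pituitary, fibroblast, endothelial and blood cells were not analysed here.

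The factors were expressed at moderate to high levels in every library. Their mean level over 8 libraries had a median of 32.8 FPKM, with quartiles at 19.4 and 54.5 FPKM, against a median of 17.9 FPKM over all protein-coding loci. Npm1, a histone and ribosome chaperone, was the most abundant at 429 FPKM, and Nol3 the least at 3.02 FPKM. Only 7 factors exceeded 100 FPKM: Npm1, Nop58, Rrp1, Nop56, Polr1d, Nhp2 and Ebna1bp2. Partners in 1 complex differed in mRNA level by ratios that varied between complexes. In the box C/D core, which guides ribose methylation, Nop58 had 303 FPKM and the methyltransferase Fbl 39.3 FPKM, a ratio of 7.72. In the box H/ACA core, which guides pseudouridylation, Nhp2 had 113 FPKM and the pseudouridine synthase Dkc1 24.0 FPKM, a ratio of 4.71. The 3 PeBoW proteins of the large subunit pathway were closer, with 64.2 FPKM for Pes1 and 40.5 FPKM for Wdr12, a ratio of 1.59. Ratios of highest to lowest were also narrow in the UTP-A (1.75) and UTP-B (1.74) complexes of the small subunit processome. Among the subunits of polymerase I alone the ratio was 1.46.

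The factors stood highest in the EGF 3 h libraries and lowest in the EGF 18 h libraries. Both EGF 3 h libraries lay above all 6 other libraries for 41 of the 84 factors (48.8%), against 11.8% of all tested genes. Both EGF 18 h libraries lay below all 6 others for 37 factors (44.0%), against 17.2% of all tested genes. The opposite patterns were rarer, with both EGF 3 h libraries below the other 6 for 3 factors (3.57%, against 17.8%) and both EGF 18 h libraries above the other 6 for 1 (1.19%, against 13.7%). Both EGFR water libraries lay above the other 6 for 8 factors (9.52%, against 14.4%) and below for 3 (3.57%, against 6.30%), and both Neo libraries above for 3 (3.57%, against 9.75%) and below for 10 (11.9%, against 8.31%). Of all protein-coding FPKM, the 84 genes together took 0.932 and 0.934% in EGFR water libraries, 1.007 and 1.004% after 3 h of EGF, 0.908 and 0.905% after 18 h, and 0.915 and 0.919% in Neo libraries. The 2 EGF 3 h libraries were the highest of the 8 on this measure, and no group overlapped another.

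**Figure D1:**
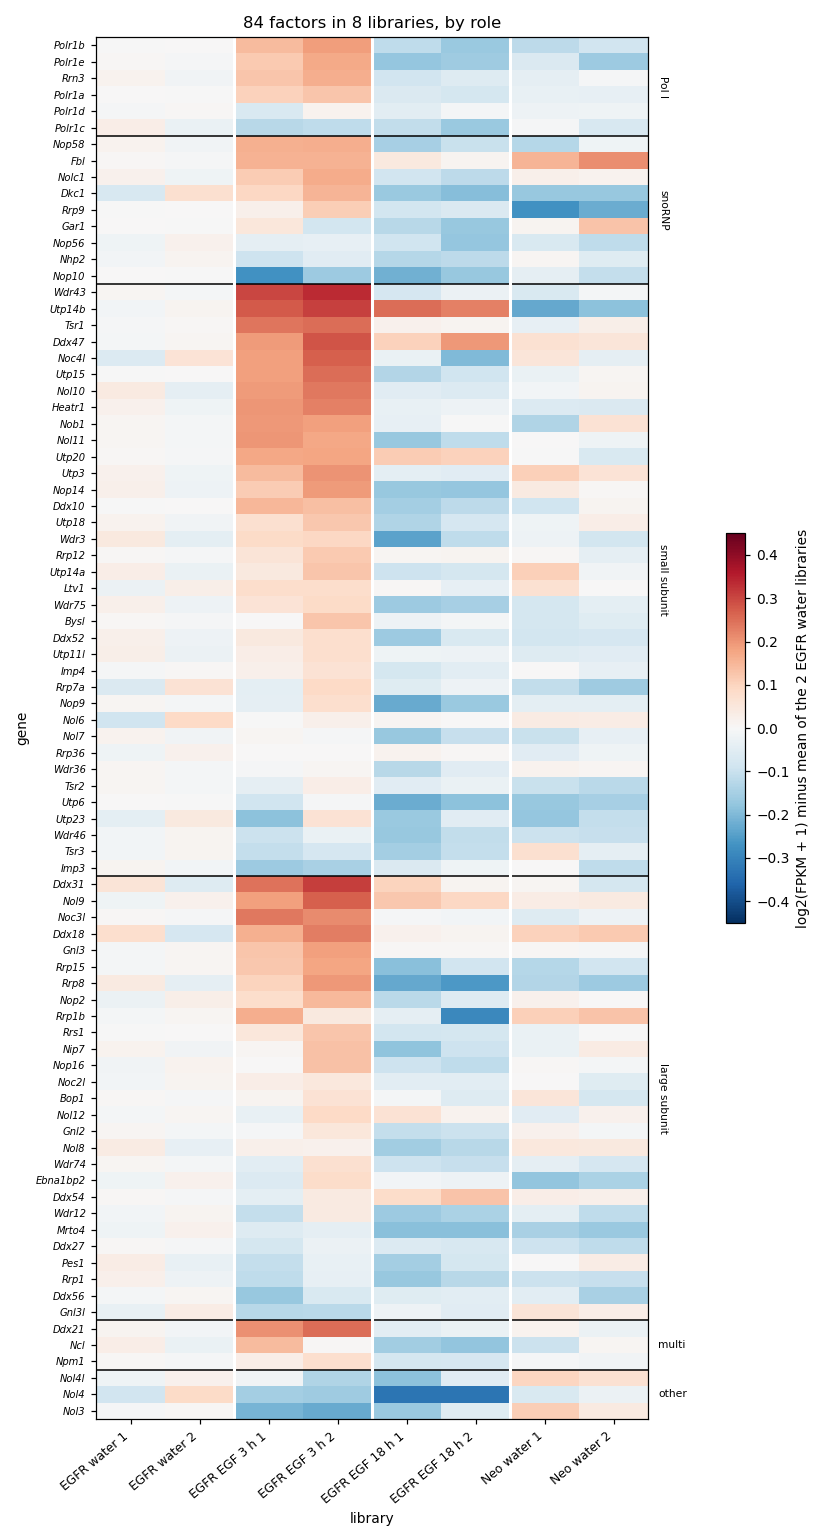
Log2(FPKM + 1) of the 84 factors (rows, grouped by role and ordered by the 3 h change) in the 8 libraries (columns), minus the mean of the 2 EGFR water libraries. The EGF 3 h columns are mostly red, with Wdr43 and Utp14b the darkest, and the EGF 18 h columns mostly pale blue.

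After 3 h of EGF, 28 of the 84 factors rose (33.3%), against 11.8% of all tested genes, and 4 fell (4.76%), against 19.7% of all tested genes. The median log2 fold change was 0.07 over the factors and −0.04 over all genes tested. The changes were small: the largest rise, that of Wdr43, was 0.32 on the log2 scale, and the largest decrease, that of Nop10, was −0.22. The 2 groups did not overlap for 46 factors that were higher after EGF (54.8%, against 26.7% of all genes) and for 16 that were lower (19.0%, against 43.8%).

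Of the 6 genes of RNA polymerase I and its initiation, 4 rose and none fell at the adjusted threshold (1 was lower at an unadjusted p under 0.05). Rrn3, the initiation factor that links growth signals to polymerase I, had 62.0 and 63.7 FPKM after 3 h of EGF, against 57.5 and 56.2 FPKM in EGFR water libraries (log2 fold change 0.14, SE 0.03, adjusted p = 0.0154). Polr1b, a catalytic core subunit, had 23.4 and 24.2 FPKM after 3 h of EGF, against 21.1 and 21.2 FPKM in water (log2 fold change 0.16, SE 0.04, adjusted p = 0.0136). Polr1a, the largest subunit, had 32.8 and 33.3 FPKM after 3 h of EGF, against 30.5 and 30.4 FPKM in water (log2 fold change 0.11, SE 0.03, adjusted p = 0.0230). In all 3 both EGF libraries lay above both water libraries. Polr1e, another subunit of polymerase I alone, rose by 0.14. The subunits that polymerase I shares with polymerase III, Polr1c and Polr1d, had log2 fold changes of −0.12 and −0.03 and did not pass. A split between own and shared subunits was noticed after the values were seen, over 5 genes, and was not tested.

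Of the 9 small nucleolar ribonucleoprotein genes, 3 rose and 1 fell. Nop58, a box C/D core protein, had 340.2 and 341 FPKM after 3 h of EGF, against 308 and 301 FPKM in water (log2 fold change 0.16, SE 0.04, adjusted p = 0.0287). Fbl had 41.1 and 41.0 FPKM after 3 h of EGF, against 36.9 and 36.6 FPKM in water (log2 fold change 0.16, SE 0.03, adjusted p = 0.0110). Nolc1, a chaperone of these particles, had 46.7 and 48.6 FPKM after 3 h of EGF, against 43.8 and 42.5 FPKM in water (log2 fold change 0.14, SE 0.03, adjusted p = 0.0202). All 3 were higher in both EGF libraries than in both water libraries. The box C/D partner Nop56 did not pass, at 140.4 and 141 FPKM after 3 h of EGF and 143 and 146 FPKM in water (adjusted p = 0.460). Nop10, the smallest H/ACA core protein, fell to 86.4 and 93.3 FPKM after 3 h of EGF, against 105 and 105 FPKM in water (log2 fold change −0.22, SE 0.04, adjusted p = 0.0111). The other H/ACA proteins did not pass, with log2 fold changes of 0.12 for Dkc1, −0.02 for Gar1 and −0.07 for Nhp2.

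Of the 36 small subunit genes, 13 rose and 1 fell, with a median of 0.08. Wdr43 (mm10 chr17:71616215-71659031), a protein of the UTP-A complex that opens processome assembly, had 43.0 and 44.1 FPKM after 3 h of EGF, against 34.9 and 34.5 FPKM in water (log2 fold change 0.32, SE 0.04, adjusted p = 0.00123). Utp14b (chr1:78658038-78671512), the mouse retrocopy of the processome gene Utp14a, had 22.1 and 22.7 FPKM after 3 h of EGF, against 17.9 and 18.3 FPKM in water (log2 fold change 0.29, SE 0.03, adjusted p = 0.00139). Tsr1 (chr11:74898071-74909342), a GTPase-like small subunit maturation factor, had 53.6 and 54.1 FPKM after 3 h of EGF, against 45.1 and 45.4 FPKM in water (log2 fold change 0.25, SE 0.03, adjusted p = 0.00213). The 2 groups were far apart in each of the 3 genes relative to the difference between replicates. Utp14b shares 3.20% of its exon bases with Acsl3 on the same strand, and Acsl3 had a log2 fold change of 0.09 at 3 h (adjusted p = 0.0687). Tsr1 shares 32.3% of its exon bases with Srr on the opposite strand, where Srr was at 2.55 and 2.30 FPKM after 3 h of EGF and 2.85 and 3.26 FPKM in water. The parent gene Utp14a did not pass (log2 fold change 0.08, adjusted p = 0.242).

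Of the 5 UTP-A proteins in the set, 4 rose. Heatr1, the largest of them, had 30.7 and 31.4 FPKM after 3 h of EGF, against 27.0 and 26.3 FPKM in water (log2 fold change 0.21, SE 0.03, adjusted p = 0.00330). Utp15 rose by 0.22 and Nol11 by 0.19, and Wdr75 had 0.07 (adjusted p = 0.114). Of the 4 UTP-B proteins, Utp18, Utp6, Wdr3 and Wdr36, none passed, with log2 fold changes from −0.05 to 0.10 and 1, Utp18, higher at an unadjusted p under 0.05. These complexes were set side by side after the values were seen, and the difference between them was not tested. Utp20, a large scaffold of the processome, had 16.7 and 16.7 FPKM after 3 h of EGF, against 14.8 and 14.6 FPKM in water (log2 fold change 0.18, SE 0.03, adjusted p = 0.0105). The other risers of this role were Ddx47 (0.24), Noc4l (0.23), Nol10 (0.21), Utp3 (0.17), Nop14 (0.15) and Ddx10 (0.14). Imp3, which helps pair the U3 RNA with its target, fell to 87.2 and 88.2 FPKM after 3 h of EGF, against 98.6 and 96.8 FPKM in water (log2 fold change −0.15, SE 0.04, adjusted p = 0.0318). Another gene, 4933427G23Rik, matches up to 60.8% of an Imp3 transcript.

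Of the 27 large subunit genes, 7 rose and 1 fell, with a median of 0.04. Ddx31 (chr2:28840406-28905571), a DEAD-box helicase, had 11.9 and 12.5 FPKM after 3 h of EGF, against 10.3 and 9.41 FPKM in water (log2 fold change 0.28, SE 0.06, adjusted p = 0.0124). Nol9, a polynucleotide kinase that acts on the spacer removed from the precursor, had 23.3 and 24.8 FPKM after 3 h of EGF, against 20.1 and 20.7 FPKM in water (log2 fold change 0.23, SE 0.04, adjusted p = 0.00584). Noc3l, a scaffold of early large subunit particles, had 18.7 and 18.4 FPKM after 3 h of EGF, against 15.8 and 15.6 FPKM in water (log2 fold change 0.22, SE 0.03, adjusted p = 0.00321). The libraries of the 2 groups did not overlap in any of the 3. Ddx18, Gnl3, Rrp15 and Rrp8 rose by 0.20, 0.16, 0.15 and 0.15. A processed pseudogene, Gm16433, matches 87.8% of a Ddx18 transcript at 99.3% identity, so the Ddx18 value is uncertain. Gnl3l, a nucleolar GTPase related to Gnl3, fell to 52.8 and 53.0 FPKM after 3 h of EGF, against 56.3 and 59.1 FPKM in water (log2 fold change −0.12, SE 0.03, adjusted p = 0.0312). The PeBoW genes Pes1, Bop1 and Wdr12 had log2 fold changes of −0.07, 0.04 and −0.03, and none of them passed.

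Among the 3 multifunctional nucleolar proteins, the helicase Ddx21, which acts in polymerase I transcription and precursor processing, had 78.5 and 80.9 FPKM after 3 h of EGF, against 68.6 and 67.3 FPKM in water (log2 fold change 0.23, SE 0.03, adjusted p = 0.00293). Ncl, or nucleolin, had 96.1 and 87.3 FPKM after 3 h of EGF and 89.0 and 85.1 FPKM in water (adjusted p = 0.336), and its 2 EGF libraries differed more from each other than the group means did. Npm1 had 440.5 and 455 FPKM after 3 h of EGF and 433 and 430.1 FPKM in water, a log2 fold change of 0.05 (adjusted p = 0.245). Processed pseudogenes match up to 46.8% of an Npm1 transcript. Of the 3 genes outside the pathway, Nol3 fell to 2.62 and 2.58 FPKM after 3 h of EGF, against 3.17 and 3.20 FPKM in water (log2 fold change −0.22, adjusted p = 0.0331), with 48.2% of its exon bases shared with a gene on the opposite strand.

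**Figure D2:**
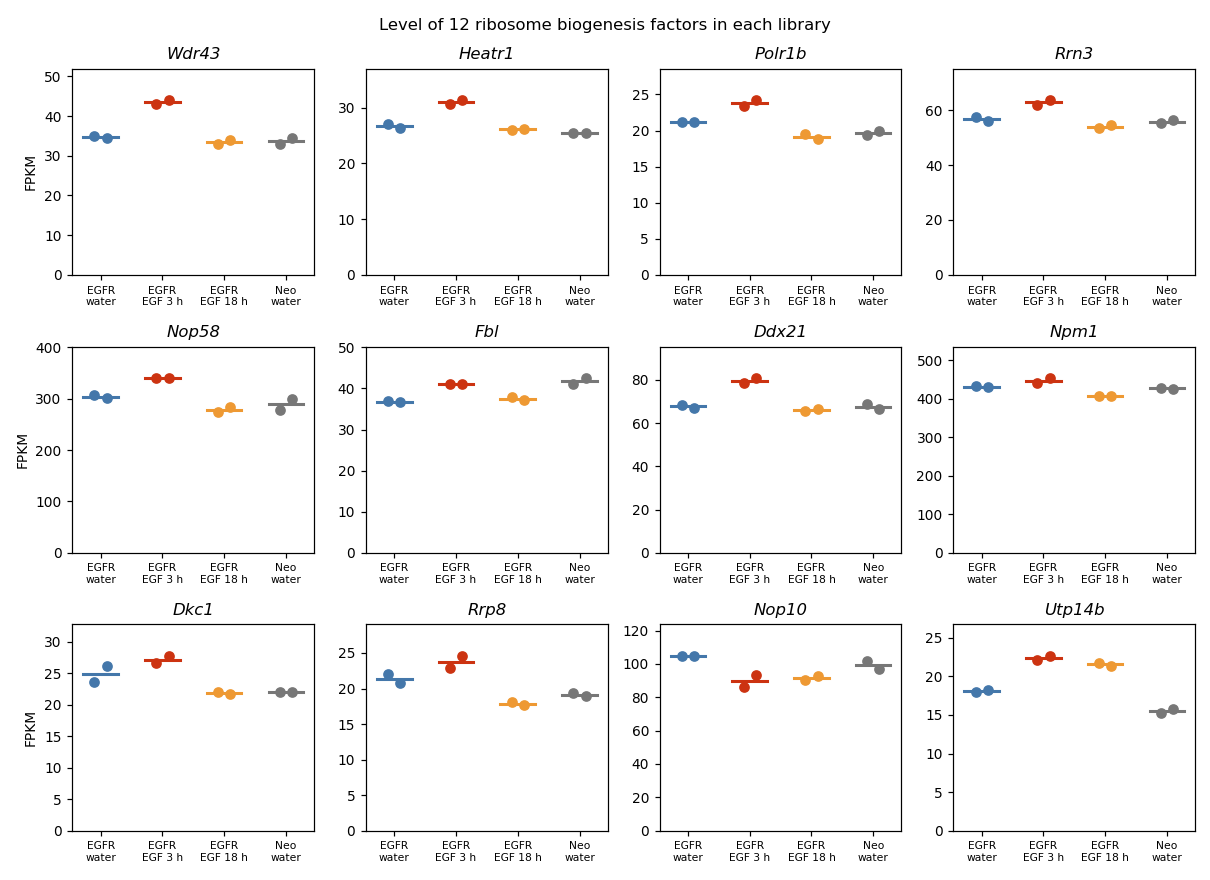
FPKM of 12 factors in each library (points, 2 per group) with the group mean (bar), for the EGFR line in water, after 3 h and 18 h of EGF, and the Neo line in water, on axes from 0. Wdr43, Heatr1, Nop58 and Ddx21 peak at 3 h and return to or below the water level at 18 h, Nop10 is lower at both times, and Utp14b stays higher at both.

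Called as risen under all 18 alternative analyses were 8 of the 28: Ddx21, Heatr1, Noc3l, Nol9, Tsr1, Utp14b, Utp15 and Wdr43. With libraries set to an equal protein-coding sum, 46 factors rose, against 24.3% of genes. Risers became fewer without EGFR water 1, EGFR water 2, EGF 3 h 1 or EGF 3 h 2, among the factors and among all genes. The median log2 fold change of the factors was then 0.07, 0.05, 0.09 and 0.04 in that order. Over all genes it was −0.04, −0.04, −0.02 and −0.06. The 4 decreases became fewer in each of these fits. Among all genes decreases became fewer too, except without EGF 3 h 2, where they became more. The 4 decreases became 1 with the median ratio (14.3% of all genes) and 0 with an equal FPKM sum (4.05%). None of the 4 was called under all 18 alternatives.

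The 3 h change went with the number of exon bases, counted over all annotated transcripts of a gene, among the factors and among all protein-coding genes. Of the 42 factors with more exon bases than their median, 19 rose, against 9 of the other 42. The Spearman correlation of the 3 h log2 fold change with exon bases was 0.26 across the 84 factors and 0.25 across 9164 protein-coding genes tested, a description across genes that share libraries. With GC percent it was −0.31 across the factors and −0.17 across protein-coding genes. When each bin of exon length was centred on its own median, 33 factors rose (against 12.4% of all genes) and 3 fell (against 15.1%) at 3 h, and with GC bins 29 rose (13.4%) and 4 fell (18.9%). Between 18 h and 3 h, the log2 difference correlated with GC percent at 0.38 across the factors and 0.31 across protein-coding genes. With exon bases the values were −0.16 and −0.08. In that comparison GC bins gave 45 factors lower (13.8% of all genes) and 1 higher (19.6%). Length bins gave 47 lower (17.1%) and 0 higher (17.3%). The part of length and GC in the results of either comparison was not tested beyond these fits.

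Promoters of the 4 factors with the largest rise at 3 h are printed because these are the members that changed most at that time. RefSeq promoter entries (GRCm38.p6, 250 bases before to 50 after the start site) matched 69 of the 84 factors. The 250 bases upstream run 5′ to 3′ on the gene's strand, at chr17:71615965-71616214 for Wdr43, chr1:78658190-78658439 for Utp14b, chr2:28840156-28840405 for Ddx31 and chr11:74897830-74898079 for Tsr1, all on the plus strand. Capitals mark the E-box CACGTG, bound by MYC and related factors, and the first base of an ETS motif CCGGAAG that runs past the start site of Tsr1.
Wdr43: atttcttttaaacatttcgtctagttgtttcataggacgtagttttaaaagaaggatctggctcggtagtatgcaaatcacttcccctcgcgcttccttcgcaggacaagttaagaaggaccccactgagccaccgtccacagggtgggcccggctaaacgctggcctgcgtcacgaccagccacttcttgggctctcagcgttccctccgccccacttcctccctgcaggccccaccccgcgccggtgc
Utp14b: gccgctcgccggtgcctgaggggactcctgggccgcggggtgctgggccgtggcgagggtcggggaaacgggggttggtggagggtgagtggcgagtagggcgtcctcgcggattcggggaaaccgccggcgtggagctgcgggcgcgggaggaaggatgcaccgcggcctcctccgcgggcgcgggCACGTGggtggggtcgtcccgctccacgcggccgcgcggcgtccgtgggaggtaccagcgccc
Ddx31: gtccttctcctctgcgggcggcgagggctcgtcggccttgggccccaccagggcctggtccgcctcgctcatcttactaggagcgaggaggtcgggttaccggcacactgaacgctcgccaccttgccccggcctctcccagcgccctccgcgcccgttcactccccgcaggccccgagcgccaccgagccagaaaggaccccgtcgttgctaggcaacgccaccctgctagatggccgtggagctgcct
Tsr1: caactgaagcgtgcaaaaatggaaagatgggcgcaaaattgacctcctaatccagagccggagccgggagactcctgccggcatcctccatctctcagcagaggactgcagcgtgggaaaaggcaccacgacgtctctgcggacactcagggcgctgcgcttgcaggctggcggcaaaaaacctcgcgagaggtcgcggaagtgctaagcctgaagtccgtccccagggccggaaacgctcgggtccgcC
Ddx31 holds none of the 4 motifs searched in its 300-base window, and the Wdr43 and Tsr1 E-boxes lie after the start site. The Utp14b window and its E-box lie inside the locus deposited for that gene, which starts at chr1:78658038, ahead of the RefSeq start site. Whether the window falls in the exon bases that Utp14b shares with Acsl3 was not tested.

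An E-box occurred in the promoters of 14 of the 69 factors (20.3%), against 12.3% of 6964 other protein-coding genes tested and 8.09% of all 27025 genes in the table. The ETS motif CCGGAAG occurred in 28 factors (40.6%), against 23.1% and 9.93% of those genes. The STAT motif TTCCNGGAA, which can overlap the ETS motif, was in 2 factors (2.90%), against 1.49% and 1.35%, and the palindromic NRF1 motif was in 0 of 69, against 2.60% and 1.07%. Both strands were searched, and a match is a description of letters and not of binding. Of the matched factors, 6 of 27 risers (22.2%) and 8 of 42 others (19.0%) held an E-box, and 11 of 27 (40.7%) and 17 of 42 (40.5%) the ETS motif.

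The E-boxes of the 6 risers with one are printed with up to 10 bases on each side, the E-box in capitals, on each gene's own strand. They lie at chr17:71616222-71616247 (plus) in Wdr43, chr1:78658367-78658392 (plus) in Utp14b, chr11:74898094-74898119 (plus) in Tsr1, chr11:107189409-107189434 (minus) in Nol11, chr10:88826765-88826787 (minus) in Utp20, and chr16:13780474-13780499 and chr16:13780641-13780666 (plus) in Rrn3.
Wdr43: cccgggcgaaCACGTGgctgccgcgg
Utp14b: cgggcgcgggCACGTGggtggggtcg
Tsr1: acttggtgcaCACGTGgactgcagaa
Nol11: tgagcgttcgCACGTGgtctagactc
Utp20: gcactaactaCACGTGaggaaaa
Rrn3: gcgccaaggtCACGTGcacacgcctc
Rrn3: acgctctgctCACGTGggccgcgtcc
Rrn3 alone of the 6 holds a pair of E-boxes, both upstream of its start site. The log2 fold changes at 3 h were 0.14 for Rrn3, 0.32 for Wdr43 and 0.29 for Utp14b. Whether the number of E-boxes goes with the size of a change was not tested.

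After 18 h of EGF, 2 of the 84 factors were higher than in water (2.38%), against 13.2% of all tested genes, and 23 were lower (27.4%), against 18.7% of all tested genes. The median log2 fold change was −0.09 over the factors and −0.03 over all genes tested. Both EGF 18 h libraries lay below both water libraries for 62 factors (73.8%, against 43.1% of all genes) and above both for 9 (10.7%, against 28.9%). This comparison and the one at 3 h share the water libraries.

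Utp14b and Ddx47 were the pair that was higher. Utp14b had 21.8 and 21.4 FPKM after 18 h of EGF, against 17.9 and 18.3 FPKM in water (log2 fold change 0.24, SE 0.03, adjusted p = 0.00208). Its neighbour Acsl3 rose by 0.26 at 18 h (adjusted p = 0.00148), and the part of the shared exon bases in the Utp14b value was not tested. Ddx47, a helicase of early precursor cleavage, had 19.0 and 20.3 FPKM after 18 h of EGF, against 17.5 and 17.8 FPKM in water (log2 fold change 0.15, SE 0.05, adjusted p = 0.0414), a call lost under 8 of the alternatives, among them those without either water library.

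Among polymerase I genes 3 of 6 fell. Polr1e had 22.4 and 22.6 FPKM after 18 h of EGF, against 25.5 and 25.3 FPKM in water (log2 fold change −0.17, SE 0.04, adjusted p = 0.0187). Polr1b had 19.5 and 18.8 FPKM after 18 h of EGF, against 21.1 and 21.2 FPKM in water (log2 fold change −0.14, SE 0.04, adjusted p = 0.0223), and Polr1c fell (log2 fold change −0.14). Polr1a and Rrn3 had log2 fold changes of −0.07 and −0.07 and did not pass. Among the small nucleolar ribonucleoprotein genes 4 of 9 fell, and 3 of these were H/ACA core genes. Nop10 had 90.1 and 92.8 FPKM after 18 h of EGF, against 105 and 105 FPKM in water (log2 fold change −0.19, SE 0.04, adjusted p = 0.0156). Dkc1 had 22.0 and 21.6 FPKM after 18 h of EGF, against 23.6 and 26.2 FPKM in water (log2 fold change −0.18, SE 0.05, adjusted p = 0.0307). Nhp2 (−0.12) and the box C/D protein Nop56 (−0.13) fell, whereas Gar1 (−0.15), Nop58 (−0.13), Nolc1 (−0.10) and Fbl (0.03) did not pass.

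Of the small subunit genes 9 of 36 fell and 2 rose. Utp6, a UTP-B protein, had 46.7 and 47.9 FPKM after 18 h of EGF, against 54.6 and 54.5 FPKM in water (log2 fold change −0.20, SE 0.04, adjusted p = 0.00568). Nop9, an RNA-binding factor of the small subunit pathway, had 15.6 and 16.3 FPKM after 18 h of EGF, against 18.6 and 18.3 FPKM in water (log2 fold change −0.20, SE 0.05, adjusted p = 0.0161). Wdr3, also of UTP-B, had 27.8 and 30.4 FPKM after 18 h of EGF, against 34.0 and 32.0 FPKM in water (log2 fold change −0.18, SE 0.05, adjusted p = 0.0343). Both EGF 18 h libraries lay below both water libraries in these 3. On the opposite strand, Nop9 shares 29.9% of its exon bases with Cideb and Wdr3 15.7% with Spag17. Heatr1 was back near the water level, at 26.0 and 26.2 FPKM after 18 h of EGF and 27.0 and 26.3 FPKM in water (adjusted p = 0.503), and Utp20 had 0.11 (adjusted p = 0.0513).

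Of the large subunit genes 6 of 27 fell. Rrp8, a methyltransferase of ribosomal RNA, had 18.0 and 17.7 FPKM after 18 h of EGF, against 22.0 and 20.7 FPKM in water (log2 fold change −0.24, SE 0.05, adjusted p = 0.00685). Mrto4, a late assembly factor related to a ribosomal stalk protein, had 75.9 and 75.8 FPKM after 18 h of EGF, against 85.3 and 87.8 FPKM in water (log2 fold change −0.19, SE 0.03, adjusted p = 0.00336). Rrp1, of the early large subunit pathway, fell (−0.15), while Pes1 (−0.12), Bop1 (−0.03) and Wdr12 (−0.15) did not pass. Pseudogenes match 59.0% of a Mrto4 transcript, and 1 of them, Mrto4-ps2, was between 1.93 and 2.37 FPKM in the EGFR libraries. Ncl, Npm1 and Ddx21 had log2 fold changes of −0.17, −0.08 and −0.04 and did not pass. Outside the pathway, Nol4 fell to 16.0 and 16.0 FPKM after 18 h of EGF, against 19.1 and 21.6 FPKM in water (log2 fold change −0.33, SE 0.05, adjusted p = 0.00409).

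The 23 decreases at 18 h rest on small differences. Only Nol4, which is not known as a biogenesis factor, was called lower under all 18 alternatives, and only Utp14b higher. Among the other decreases named, the call was lost under 11 alternatives for Wdr3, 9 for Dkc1, 8 for Nhp2 and 7 for Nop56 and Polr1c. It was lost under 6 for Polr1b, 5 for Polr1e and Rrp1, 4 for Nop10 and Nop9, and 1 for Utp6, Mrto4 and Rrp8. Decreases became fewer without EGFR water 1, EGFR water 2, EGF 18 h 1 or EGF 18 h 2, among the factors and among all genes. The median log2 fold change of the factors was then −0.08, −0.09, −0.07 and −0.08 in that order, against −0.03 over all genes in each. Median-ratio scaling gave 14 decreases (16.7%, against 14.9% of genes). The protein-coding sum gave 11 (13.1%, against 15.3%) and an equal FPKM sum 2 (2.38%, against 6.48%). Under these scalings the share of factors called lower was thus near or under the background. The median of the factors under these scalings was −0.06, −0.04 and −0.05, against −0.001, 0.015 and 0.001 over all genes, so the median of the factors stayed under that of all genes in each.

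**Figure D3:**
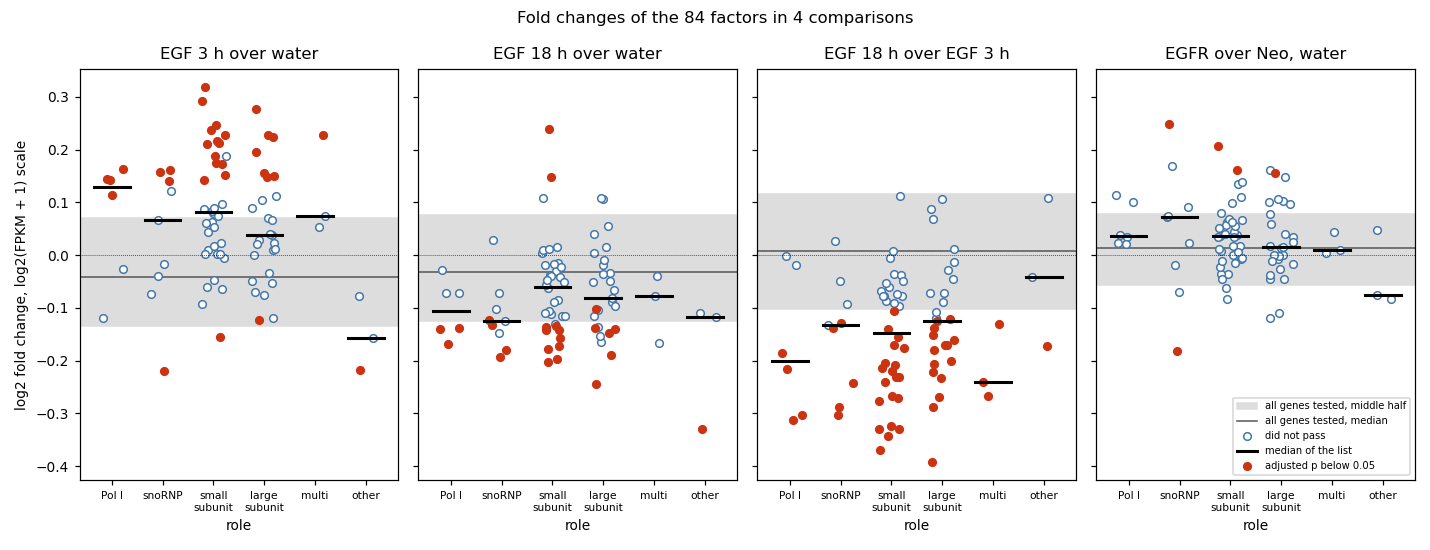
Log2 fold change of each of the 84 factors in 4 comparisons, by role, with factors at an adjusted p under 0.05 filled, the median of each role as a bar, and the median and interquartile range of all genes tested as a line and grey band. Most filled points lie above the band at 3 h and below it between 18 h and 3 h.

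The difference between the times was the clearest comparison. Between 18 h and 3 h of EGF, 48 of the 84 factors were lower at 18 h (57.1%), against 16.0% of all tested genes, and 0 were higher, against 17.7% of all tested genes. Limma called 3 factors higher at an unadjusted p under 0.05. The median log2 difference was −0.14 over the factors and 0.01 over all genes tested. Both 18 h libraries lay below both 3 h libraries for 64 factors (76.2%, against 33.1% of all genes) and above both for 6 (7.14%, against 35.2%). This comparison shares its libraries with those of each time against water.

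By role, 4 of 6 polymerase I genes, 5 of 9 small nucleolar ribonucleoprotein genes, 20 of 36 small subunit genes, 15 of 27 large subunit genes and all 3 multifunctional nucleolar genes were lower at 18 h than at 3 h. The medians of the first 4 roles were −0.20, −0.13, −0.15 and −0.12. Rrp8 had the largest difference, with 18.0 and 17.7 FPKM at 18 h, against 22.9 and 24.6 FPKM at 3 h (log2 fold change −0.39, SE 0.05, adjusted p = 0.00139). Wdr43 had 32.9 and 34.1 FPKM at 18 h, against 43.0 and 44.1 FPKM at 3 h (log2 fold change −0.37, SE 0.04, adjusted p = 0.000711). Noc4l, the partner of Nop14 in small subunit assembly, had 20.4 and 18.0 FPKM at 18 h, against 23.8 and 25.3 FPKM at 3 h (log2 fold change −0.34, SE 0.07, adjusted p = 0.0107). The libraries of the 2 times did not overlap in these 3 genes, and the Noc4l call was lost without EGF 3 h 2 or EGF 18 h 2. Rrp8 shares 10.0% of its exon bases with Ilk on the opposite strand.

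All 5 UTP-A genes were lower at 18 h, with log2 differences of −0.23 to −0.37. Heatr1 had 26.0 and 26.2 FPKM at 18 h, against 30.7 and 31.4 FPKM at 3 h (log2 fold change −0.24, SE 0.03, adjusted p = 0.00194). Nol11 had 20.7 and 21.5 FPKM at 18 h, against 27.0 and 26.5 FPKM at 3 h (log2 fold change −0.33, SE 0.03, adjusted p = 0.000841). An antisense gene, Gm11715, matches 13.9% of a Nol11 transcript. Of the 4 UTP-B genes, 3 were lower, and the difference between the complexes was not tested. The polymerase I subunits Polr1e (−0.31), Polr1b (−0.30) and Polr1a (−0.19) and the factor Rrn3 (−0.22) were lower, and Polr1c (−0.02) and Polr1d (0.00) did not pass.

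Dkc1 had 22.0 and 21.6 FPKM at 18 h, against 26.6 and 27.7 FPKM at 3 h (log2 fold change −0.30, SE 0.05, adjusted p = 0.00467). Nop58 had 274 and 284 FPKM at 18 h, against 340.2 and 341 FPKM at 3 h (log2 fold change −0.29, SE 0.04, adjusted p = 0.00353). Nolc1 (−0.24), Rrp9 (−0.14) and Fbl (−0.13) were lower, and Nop56 (−0.09), Gar1 (−0.13), Nhp2 (−0.05) and Nop10 (0.03) did not pass. In the large subunit pathway Rrp15 (−0.29) and Rrp1b (−0.27) were lower, and Pes1 (−0.04), Bop1 (−0.07) and Wdr12 (−0.12) did not pass. Ddx21 had 65.7 and 66.5 FPKM at 18 h, against 78.5 and 80.9 FPKM at 3 h (log2 fold change −0.27, SE 0.03, adjusted p = 0.00158). Ncl was lower (log2 difference −0.24). Npm1 was lower too, at 409 and 409 FPKM at 18 h, against 440.5 and 455 FPKM at 3 h (log2 difference −0.13). Outside the pathway, Nol4 was lower by the same test (−0.17). Utp20 (−0.07) and Utp14b (−0.05) did not pass.

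Of the 48 factors, 23 were called lower under all 18 alternatives, Rrp8, Wdr43, Nol11, Polr1a, Polr1b, Polr1e, Rrn3, Dkc1, Nop58, Nolc1, Heatr1, Ddx21 and Rrp15 among them. Among the other factors named, the call was lost under 10 alternatives for Rrp1b and for Nol4, 7 for Npm1, 6 for Fbl, 4 for Ncl and 2 for Noc4l. The count was 26 without EGF 18 h 1, 28 without EGF 18 h 2 and 32 without EGF 3 h 2, when 7.48%, 8.44% and 11.8% of all genes were called lower.

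FPKM depend on what else a library holds, so the calls were repeated with 3 other scalings, with the share of all genes called given after each count. At 3 h of EGF against water, the median ratio gave 39 risers (16.4%) and 1 decrease (14.3%), the protein-coding sum 46 (24.3%) and 2 (14.6%), and an equal FPKM sum 25 (12.4%) and 0 (4.05%). Between 18 h and 3 h, the same scalings gave 51 factors lower (17.8%) and 1 higher (18.1%), 55 lower (21.9%) and 0 higher (20.9%), and 37 lower (12.2%) and 0 higher (7.94%). At 18 h against water, 5 factors were higher with the median ratio (17.0%), 5 with the protein-coding sum (23.7%) and 1 with an equal FPKM sum (10.9%). Between EGFR and Neo water libraries they gave 4 higher (3.16%) and 1 lower (4.06%), 5 higher (5.34%) and 1 lower (6.61%), and 2 higher (2.84%) and 0 lower (0.947%).

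**Figure D4:**
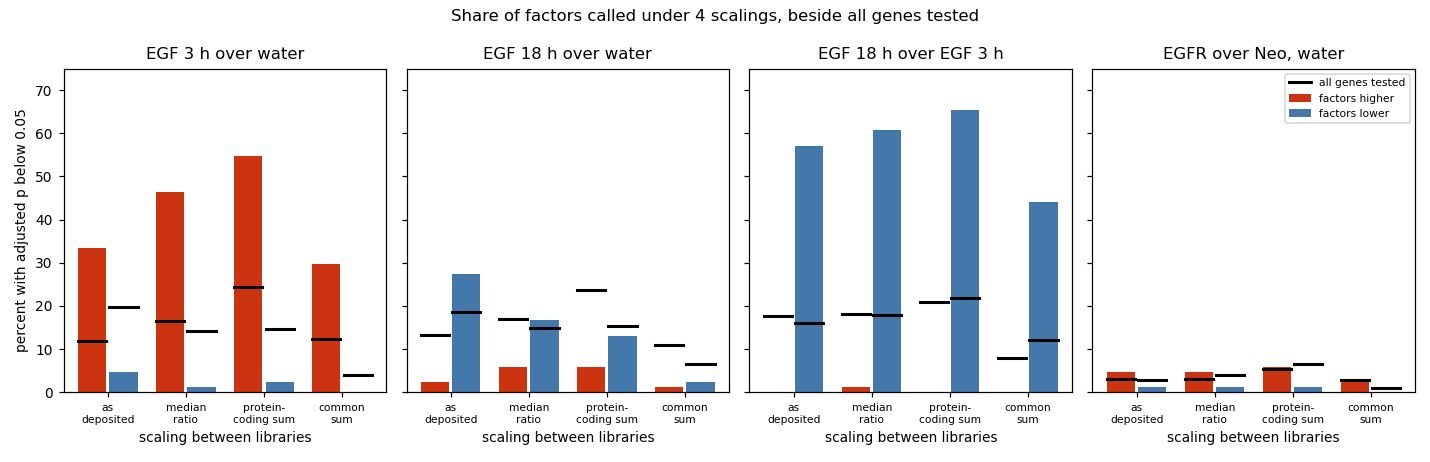
Percent of the 84 factors called higher (red) and lower (blue) at an adjusted p under 0.05 in 4 comparisons under 4 ways of scaling the libraries, with the percent of all genes tested as black lines. Under each scaling the rise at 3 h and the lower level at 18 h than at 3 h stand above the lines, whereas the decrease at 18 h against water does so only for the values as deposited and, by a small margin, for the median ratio.

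In water the lines differed in few of these genes. In the EGFR line, 4 of the 84 factors were higher than in the Neo line (4.76%), against 3.11% of all tested genes, and 1 was lower (1.19%), against 2.90%, so both shares were near the background. Both EGFR water libraries lay above both Neo libraries for 35 factors (41.7%, against 33.6% of all genes) and below both for 11 (13.1%, against 24.2%). Rrp9, which binds the U3 particle, had 44.0 and 44.1 FPKM in EGFR water libraries, against 36.3 and 37.6 FPKM in Neo libraries (log2 fold change 0.25, SE 0.04, adjusted p = 0.0161). Utp14b had 17.9 and 18.3 FPKM in EGFR water libraries, against 15.3 and 15.8 FPKM in Neo libraries (log2 fold change 0.21, SE 0.03, adjusted p = 0.02). Utp6 and Mrto4 were higher by 0.16 and 0.16. Utp6 had 48.4 and 49.1 FPKM in Neo libraries, near the 46.7 and 47.9 FPKM after 18 h of EGF. Mrto4 had 78.1 and 77.0 FPKM in Neo libraries, near the 75.9 and 75.8 FPKM after 18 h of EGF. Rrp9 and Utp14b were not called lower at 18 h. The comparison of the lines and that of 18 h with water share the EGFR water libraries. Fbl was lower, at 36.9 and 36.6 FPKM in EGFR water libraries, against 41.0 and 42.6 FPKM in Neo libraries (log2 fold change −0.18, SE 0.03, adjusted p = 0.0246). Its level after 3 h of EGF, 41.1 and 41.0 FPKM, was closer to that of the Neo libraries than to that of the water libraries.

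Among the factors described in every comparison, none of the others passed between the lines. The log2 fold changes were 0.03 for Polr1a, 0.10 for Polr1b, 0.02 for Rrn3, 0.04 for Ncl, 0.01 for Npm1, 0.09 for Nop56 and 0.07 for Nop58. They were 0.17 for Dkc1, −0.07 for Gar1, 0.02 for Nhp2, 0.07 for Nop10, −0.02 for Nolc1, 0.06 for Heatr1 and 0.04 for Utp20. The PeBoW genes had −0.02 for Pes1, 0.01 for Bop1 and 0.08 for Wdr12. None of the 5 calls between the lines held under all 18 alternatives. Calls became fewer without Neo 1, Neo 2, EGFR water 1 or EGFR water 2, among the factors and among all genes. The median log2 fold change of the factors was then 0.03 in each. Over all genes it was 0.02, 0.01, 0.01 and 0.02 in that order.

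Genes of the same pathway outside the symbol rule gave a similar picture in lists that, like the factors themselves, were drawn up with earlier results of these data known. Of 83 tested, 18 rose and 6 fell at 3 h of EGF against water (all genes, 11.8% and 19.7%), with a median log2 fold change of 0.04. At 18 h, 38 were lower than at 3 h of EGF and none higher by limma (none at an unadjusted p under 0.05; all genes, 16.0% and 17.7%), with a median of −0.13. At 18 h against water 26 fell and none rose (none at an unadjusted p under 0.05; all genes, 18.7% and 13.2%), with a median of −0.09. Between the lines 4 were higher and none lower (3 at an unadjusted p under 0.05), with 3.11% and 2.90% of all genes called, so the higher count was near the background. Tcof1, the treacle protein that supports polymerase I, had 15.9 and 15.7 FPKM after 3 h of EGF, against 12.6 and 12.6 FPKM in water (log2 fold change 0.30, SE 0.04, adjusted p = 0.00301). Urb1, a large subunit assembly protein, rose by 0.29 at 3 h, and Dis3, the exosome nuclease, by 0.30. Brix1, another large subunit factor, rose by 0.36 at 3 h (adjusted p = 0.0460), but its 2 Neo libraries had 24.7 and 32.8 FPKM and its call was lost under 11 of the alternatives.

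The 6 decreases at 3 h included Pih1d1 (−0.25) and Znhit3 (−0.16), which help assemble box C/D particles, and the exosome subunits Exosc5 (−0.21) and Exosc4 (−0.19). The Znhit3 call was lost under 7 of the 18 alternatives, those of Pih1d1 and Exosc4 under 3 each and that of Exosc5 under 2. At 18 h against water the largest decreases were those of Exosc8 (−0.30), Ruvbl2 (−0.26), Pih1d1 (−0.24) and Exosc9 (−0.21). Between 18 h and 3 h the largest were those of Brix1 (−0.60), Dis3 (−0.37), Cirh1a (−0.34), which encodes a further UTP-A protein, and the polymerase I subunit gene Twistnb (−0.30). Exosc7 (0.19), Exosc9 (0.19), Ngdn (0.18) and Emg1 (0.17) were higher in the EGFR line than in the Neo line. These 4 calls were lost under 7, 5, 6 and 8 alternatives in that order, and each was lost without any 1 of the 4 libraries compared. Of the 11 exosome genes tested, 2 rose and 3 fell at 3 h, beside 11.8% and 19.7% of all genes.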

How the data were processed

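Gene expression was measured by RNA-seq in 8 AtT-20 libraries, 2 in each of 4 groups taken from the titles and labels. The authors deposited FPKM per gene locus in 1 table per library. Tools listed in the submitters' processing notes are TopHat2 2.0.8, Trimmomatic 0.22, DESeq and HTSeq 0.5.4, with the build mm10. The FPKM program and use of strand were, for the files, not given in the sources used here. Deposited FPKM look like model estimates (649 values lie above 0 and under 1e-10), so depth is unknown and no counting interval is given.

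Genes with at least 1 FPKM in at least 2 libraries were kept (10874 of 12193), and log2(FPKM + 1) was fitted with limma 3.58.1 (trend, 4 groups, 4 residual degrees of freedom) in R 4.3.3. P-values were Benjamini-Hochberg adjusted over all genes within each comparison, with 0.05 as threshold. The members and lists were chosen with earlier results of these data known. Of the factors, 18 core ones were named in every comparison, with up to 3 called members of each role with the largest change in each direction and any called member moving against the majority; of pathway genes outside the rule, up to 4 each way. Other genes and complexes were named after their values were seen. Copies were sought with minimap2 2.31 and exon overlaps in GENCODE M21: 21 factors match a copy or overlap another gene over at least 10% of their bases and are uncertain. They are Ddx18, Ddx54, Imp3, Mrto4, Noc2l, Nol11, Nol3, Nol7, Nop9, Npm1, Pes1, Polr1d, Rrp7a, Rrp8, Tsr1, Tsr2, Tsr3, Utp14a, Utp23, Wdr12 and Wdr3. Alternatives were other scalings, pseudocounts, filters, fits, length and GC centring, a replicate block and leaving out each library.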

Additional observations from a re-analysis of the deposited data

Results flagged for a closer look

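For 19 of the named factors the levels after 18 h and after 3 h of EGF differed by limma (18 h minus 3 h, adjusted p under 0.05). With no water library at 18 h, this compares the treated groups, and a change of the EGF effect cannot be told apart from time in culture. In RNA polymerase I and its initiation the differences on the log2 scale were −0.31 for Polr1e, −0.3 for Polr1b, −0.22 for Rrn3 and −0.19 for Polr1a. In small nucleolar ribonucleoproteins they were −0.3 for Dkc1, −0.29 for Nop58, −0.24 for Nolc1 and −0.13 for Fbl. In the small subunit pathway they were −0.37 for Wdr43, −0.34 for Noc4l, −0.33 for Nol11 and −0.24 for Heatr1. In the large subunit pathway they were −0.39 for Rrp8, −0.29 for Rrp15 and −0.27 for Rrp1b. The multifunctional proteins had −0.27 for Ddx21, −0.24 for Ncl and −0.13 for Npm1, and Nol4, outside the pathway, −0.17. All 19 were lower at 18 h than at 3 h. Of these calls, 6 were lost under some of the 18 alternatives: Rrp1b and Nol4 under 10 each, Npm1 under 7, Fbl under 6, Ncl under 4 and Noc4l under 2.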

How the results depend on the processing

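Counts of factors are given as higher and lower. Between EGFR and Neo water libraries (4 and 1), the equal FPKM sum gave 2 and 0, fitting only those groups 1 and 0, and leaving out 1 library 0 to 5 and 0 to 1. At 3 h of EGF against water (28 and 4), the protein-coding sum gave 46 and 2, the median ratio 1 lower, the equal FPKM sum 0 lower, the set without uncertain members and those of other function 2 lower of 61 factors, and leaving out 1 library 10 to 27 and 0 to 4. At 18 h against water (2 and 23), the median ratio gave 5 and 14, the equal FPKM sum 1 and 2, the protein-coding sum 5 and 11, no variance trend 1 higher, GC bins 4 higher, and leaving out 1 library 1 to 4 and 4 to 28. Between 18 h and 3 h (0 and 48), the median ratio and GC bins gave 1 higher each, and leaving out 1 library 0 to 1 and 26 to 45. The cause of these changes was not tested. Where a group keeps 1 library, that library is assumed to vary like the others. With the replicate number as a block the counts were 2 and 1 between the lines, 25 and 3 at 3 h, 2 and 19 at 18 h, and 0 and 44 between the times. Deviations of same-numbered libraries correlated at −0.17 to 0.31, so the numbers were not taken as a pairing. Over single genes, 1970 values kept their side of the threshold, 275 lost the call and 41 gained it. No value called in either fit reversed direction. Values called in neither fit count among the 1970 even where their sign changed, as that of Wdr12 at 3 h did (−0.11 to 0.05). With 2 libraries a group and unknown depth, a factor that did not pass is not shown to be unchanged.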

Other observations

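Members of the MYC network, transcription factors that bind E-boxes, changed at 3 h of EGF by up to −1.01 on the log2 scale. Of 9 tested, 2 rose and 6 fell against water, beside 11.8% and 19.7% of all genes. Max, the common partner, had a log2 fold change of 0.39 and Mlx, its relative, 0.36. Mycl had 4.34 and 4.07 FPKM after 3 h of EGF, against 9.66 and 9.31 FPKM in water (log2 fold change −1.01, SE 0.05, adjusted p = 5.28e-05). The MAX partners Mxd4 (−0.74), Mxi1 (−0.52), Mnt (−0.35) and Mxd3 (−0.27) fell, as did Mycn (−0.35). At 18 h against water 1 rose, Max (0.21), and 3 fell, beside 13.2% and 18.7% of all genes. Myc and Mxd1 were not analysed here.

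Some small nucleolar RNA loci inside Nop56 and Gnl3 varied between libraries of 1 group, and those inside Nop58 and Ncl were at 0 or nearly 0 in all 8 libraries. Snord57, in Nop56, was listed at 502 and 247 FPKM after 3 h of EGF, against 0 or nearly 0 in both EGFR water libraries. The same locus was at 0.303 and 147 FPKM after 18 h of EGF and at 0 and 377 FPKM in the Neo libraries. Gm23650, in the same gene, was at 633 FPKM in EGF 3 h 2 and nearly 0 in EGF 3 h 1.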
